A study of Arabidopsis thaliana with 18 samples.

Results

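Polysomal RNA was set against monosomal RNA of freshly harvested, dry Arabidopsis thaliana seeds of the abci20 mutant. The comparison used 6 of the 18 arrays of the study, 3 of abci20 polysomal RNA and 3 of abci20 monosomal RNA, chosen by their sample titles. The other arrays used were 3 of Col-0 polysomal RNA and 3 of Col-0 monosomal RNA, which served for the same contrast without the mutation, and 3 of total RNA per genotype, which shared the estimate of the spread. Both genotypes were in the Col-0 background. The mutant is named for ABCI20, a gene of the ABCI family of ABC proteins; which allele it carries, and whether the line is a single isolate, are not given in the sources used here. Plants of both genotypes were grown in randomized blocks, and each replicate was the seed of a bulk of 8 plants, so whole seeds of several plants were pooled on every array. Every level below is the deposited log2 expression value of a probe set, and every difference is a log2 difference, polysomal minus monosomal.

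Messages are translated by ribosomes that load one behind the other. Sedimentation through a sucrose gradient separates messages that carry several ribosomes (polysomes) from those found with a single ribosome (monosomes), and the share of a message in the heavy fraction is widely used as a measure of its translation. A dry seed holds stored messages made while the seed matured, among them those of storage proteins, oil body proteins and protective proteins, and most of its ribosomes are known to be monosomes until the seed takes up water. The number of ribosomes a message can hold depends on the length of its coding region, so long messages tend to sediment with polysomes. The sources used here do not describe how the fractions of these seeds were separated and pooled. Values on an array are relative to the other messages on that array, so a difference between fractions tells nothing of how much RNA each fraction held, and fewer cells of a type and less RNA per cell cannot be told apart in such bulk samples.

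The 6 compared arrays had medians of 3.21 to 3.28 and the arrays of one fraction resembled each other more than those of the other. Pearson's r over all 27827 probe sets was 0.980 to 0.987 among the 3 abci20 polysomal arrays and 0.967 to 0.969 among the 3 monosomal arrays, against 0.952 to 0.959 between the fractions. The polysomal arrays had a wider spread of levels, with an SD of 2.33 to 2.36, against 2.17 to 2.25 for the monosomal arrays. Markers of the labelled tissue were among the brightest probe sets. The median storage protein gene stood at the percentile 99.9 of the mean levels of the 6 arrays, and the median late embryogenesis abundant protein gene at 99.8. Markers of seed coat, pollen and root had median percentiles of 18.1, 12.4 and 28.4, and none of their 13 probe sets was called between the fractions. Their median levels were 1.58 to 1.84 on the polysomal and 2.06 to 2.12 on the monosomal arrays for the 6 seed coat markers, 1.77 to 1.88 and 1.61 to 1.96 for the 3 pollen markers, and 1.79 to 1.99 and 2.34 to 2.68 for the 4 root markers.

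ABCI20 itself had a low level on these arrays and was not called between the fractions. It had 2.37, 1.61 and 2.16 on the abci20 polysomal arrays and 2.40, 2.06 and 1.63 on the monosomal arrays, at the percentile 22.4 of all probe sets. The Col-0 arrays had 4.23, 4.49 and 4.39 in polysomal and 3.83, 5.09 and 4.37 in monosomal RNA, so every abci20 array lay below every Col-0 array of these fractions, as the genotype labels have it. Its fitted difference was 0.02 ± 0.34 (SE), adjusted p = 0.982. ABCI21, a second member of the same family, rose in the polysomal fraction. It had 4.14, 4.02 and 4.40 on the polysomal arrays and 3.05, 3.53 and 3.50 on the monosomal arrays, a difference of 0.83 ± 0.23 (SE), adjusted p = 0.0299. Without single arrays or under other settings this adjusted p reached 0.201. ABCI19 differed by 0.14 ± 0.30 (adjusted p = 0.794).

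Of 27827 probe sets, 2994 (10.8%) differed between polysomal and monosomal RNA of abci20 seeds at an adjusted p below 0.05 in limma's moderated test with Benjamini-Hochberg adjustment over all probe sets, which is what "called", "rose" and "fell" refer to below. 2034 (7.31%) rose and 960 (3.45%) fell in the polysomal fraction, and 1248 of the higher and 513 of the lower ones differed by 2-fold or more. Without adjustment, 7078 (25.4%) had p below 0.05. The levels of the 2 sets of 3 arrays did not overlap for 10336 (37.1%). The split leaned to higher calls, 67.9% of all called. After quantile normalization of the arrays 1160 rose and 912 fell, a share of 56.0% higher. Of the 2034 higher calls 1072 were kept under that setting, and of the 960 lower calls 677. The count was lower without any single compared array. It was 1475, 2114 and 1730 without abci20 polysomal replicate 1, 2 and 3, and 2144, 2224 and 2035 without abci20 monosomal replicate 1, 2 and 3. The median of all differences was -0.11 as deposited and -0.01 after quantile normalization, and the values below can be read against that shift.

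Among genes in the reference annotation, those with the largest rise in polysomal RNA were mostly very long. Of the 14 largest rises, 10 were of genes that span 10000 bp or more on the reference annotation, introns included, and 2 of genes under 1000 bp; the median span was 13574 bp. BIG, which encodes a giant calossin-like protein needed for auxin transport, led them. BIG had 9.35, 9.21 and 9.32 on the abci20 polysomal arrays and 6.24, 5.92 and 6.23 on the monosomal arrays. All 3 polysomal arrays lay about 3 log2 units above all monosomal ones, a difference of 3.16 ± 0.18 (SE), adjusted p = 8.85e-08, and the mean level in abci20 total RNA, 7.87, lay between them. AT1G67120, annotated as MIDASIN 1, an ATPase that remodels precursors of the large ribosomal subunit, had 6.66, 6.88 and 6.36 on the polysomal and 4.05, 3.81 and 3.53 on the monosomal arrays, a difference of 2.84 ± 0.25 (adjusted p = 1.01e-05). UPL2, a ubiquitin ligase of the HECT class, had 6.77, 7.24 and 6.91 on the polysomal and 4.32, 4.799 and 4.46 on the monosomal arrays, a difference of 2.45 ± 0.21 (adjusted p = 9.39e-06).

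**Figure D1:**
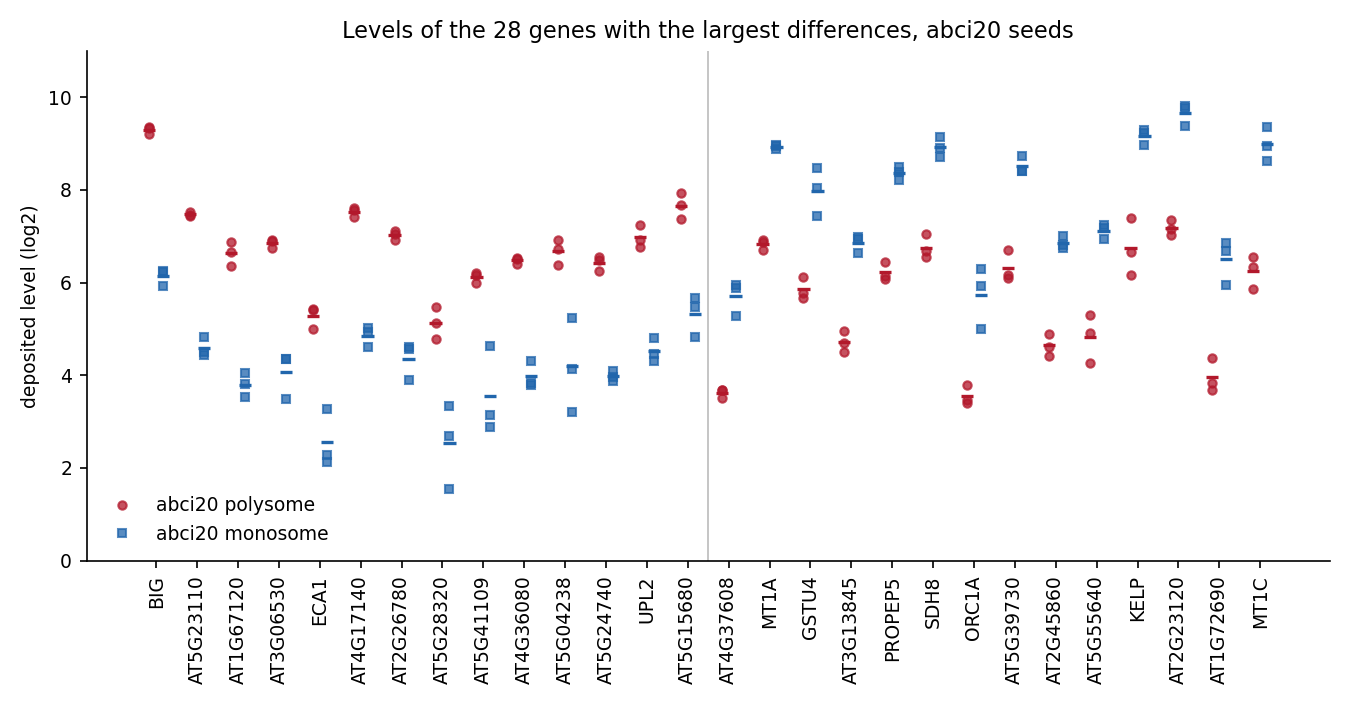
Deposited log2 levels (y axis) of the 28 genes with the largest fitted differences among called genes that have a symbol or protein in the reference and whose 2 sets of arrays do not overlap, abci20 polysomal arrays (red circles, left of each pair) and abci20 monosomal arrays (blue squares), with a short line at each mean of 3 arrays. The grey line parts the 14 genes that rose from the 14 that fell.

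ECA1, a calcium pump of the endoplasmic reticulum, was shorter than most of these genes and rose almost as far. It had 5.40, 5.002 and 5.43 on the polysomal arrays, against 3.27, 2.29 and 2.13 on the monosomal arrays, a difference of 2.71 ± 0.42 (adjusted p = 0.000599). SHRUBBY (AT5G24740), known as a large protein that acts in root patterning, had 6.49, 6.56 and 6.24 on the polysomal and 3.89, 4.08 and 3.96 on the monosomal arrays, a difference of 2.45 ± 0.24 (adjusted p = 2.74e-05). The other 9 of the 14 are locus names in the reference. AT5G23110, AT3G06530, AT4G17140 and AT2G26780 rose by 2.88, 2.79, 2.67 and 2.67, and AT5G28320, AT4G36080 and AT5G15680 by 2.60, 2.50 and 2.34. AT5G41109 and AT5G04238, annotated at 141 and 195 bp, rose by 2.57 and 2.49. The call of AT5G41109 (adjusted p = 0.0288) was lost under 6 alternatives, where its adjusted p was up to 0.105, and the other 13 kept theirs under each setting tried.

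The longest genes among those called were ATM, AT1G48090 and AT1G67120, with spans of 27265, 26499 and 26211 bp. ATM, the kinase that signals DNA double-strand breaks, had 6.21, 6.15 and 5.88 on the polysomal and 4.02, 4.14 and 3.78 on the monosomal arrays. Its difference of 2.097 ± 0.24 (SE) had an adjusted p of 4.57e-05. AT1G48090 rose by 2.31 ± 0.18 (adjusted p = 2.02e-06).

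The genes with the largest fall in polysomal RNA spanned 418 to 2588 bp. Of these 14, 6 were under 1000 bp, and KELP and ORC1A, at 2555 and 2588 bp, were longer than the median gene. MT1C, which encodes a small cysteine-rich protein that binds metal ions, had 6.34, 6.55 and 5.85 on the polysomal arrays and 8.94, 9.36 and 8.63 on the monosomal arrays. Its difference was -2.73 ± 0.40 (SE), adjusted p = 0.000413. MT1A, the neighbouring gene of the same family, had 6.88, 6.92 and 6.70 on the polysomal and 8.97, 8.87 and 8.95 on the monosomal arrays, a difference of -2.101 ± 0.36 (adjusted p = 0.00118).

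SDH8, a small plant subunit of mitochondrial succinate dehydrogenase, had 6.68, 7.04 and 6.55 on the polysomal and 8.70, 9.14 and 8.90 on the monosomal arrays, a difference of -2.16 ± 0.26 (adjusted p = 7.18e-05). PROPEP5, the precursor of an elicitor peptide of plant immunity, had 6.15, 6.44 and 6.07 on the polysomal and 8.22, 8.38 and 8.50 on the monosomal arrays, a difference of -2.15 ± 0.24 (adjusted p = 4.3e-05). KELP, a transcriptional coactivator, had 6.66, 7.39 and 6.17, against 8.97, 9.28 and 9.22. In all 3 genes every monosomal array lay above every polysomal one by more than the spread of either group. GSTU4, a glutathione transferase, fell by 2.13, and ORC1A, a subunit of the complex that marks replication origins, by 2.19. AT1G72690, AT2G23120, AT5G55640, AT2G45860, AT5G39730, AT3G13845 and AT4G37608, for which the reference has no symbol, fell by 2.08 to 2.53. All 14 kept their call under each of those settings.

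Across all genes, the difference between polysomal and monosomal RNA went with gene span. Over the 26436 protein-coding genes with a span, Pearson's r between the abci20 difference and log2 span was 0.436 and Spearman's rho 0.445, across genes, which are not independent replicates. Genes spanning under 500 bp had a median difference of -0.34, those from 1000 to under 1500 bp -0.31, those from 2000 to under 3000 bp -0.02, those from 4000 to under 6000 bp 0.41, those from 6000 to under 10000 bp 0.91 and those of 10000 bp or more 1.504. From 2000 to under 3000 bp the sign was not settled, since the median was 0.01 after quantile normalization and after centring each array. Of the 121 genes of 10000 bp or more, 71.9% rose and none fell; of the 757 genes from 6000 to under 10000 bp, 54.4% rose and 0.132% fell. In the other direction, 7.27% of the 2860 genes from 500 to under 1000 bp fell and 0.385% rose. The genes that rose had a median span of 4316 bp, those that fell 1446 bp and all 2115 bp.

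**Figure D2:**
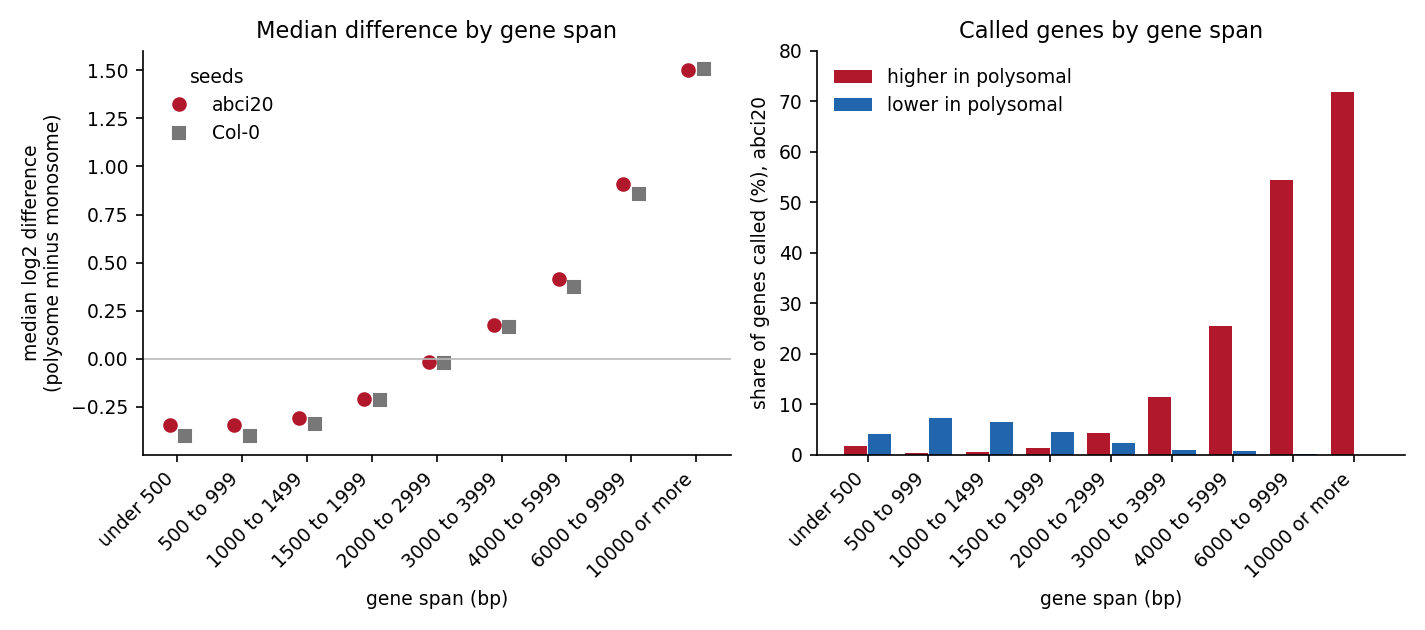
Left, median log2 difference (polysomal minus monosomal, y axis) of protein-coding genes by class of gene span in bp (x axis), abci20 (red circles, left of each pair) and Col-0 (grey squares). Right, percentage of genes in each class that rose (red) or fell (blue) in abci20 polysomal RNA; the share that rose reached 71.9% in the class of 10000 bp or more.

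The relation with span held for the genes with brighter signals and was slight among the dim ones. Genes above the median level of the 6 arrays had median differences of -0.40 from 500 to under 1000 bp, 0.19 from 2000 to under 3000 bp, 0.67 from 4000 to under 6000 bp and 1.73 at 10000 bp or more, and 91.5% of the 94 brighter genes of that last class rose. Genes at or below the median level had -0.34, -0.25, -0.18 and -0.20 in the same classes, the last over 27 genes. Level itself moved with the result. Of 4 equal classes of probe sets by level, the dimmest had a median difference of -0.28 and 0.0144% that rose, and the brightest had 0.12 and 14.6%. Level in abci20 total RNA also went with log2 span (r = 0.231). The level used for these divisions was the mean of the same 6 arrays that gave the difference. A rise in polysomal RNA thus itself lifts a gene's level, so the divisions are not independent of the difference. The part of level in the relation with span was not tested beyond them.

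**Figure D3:**
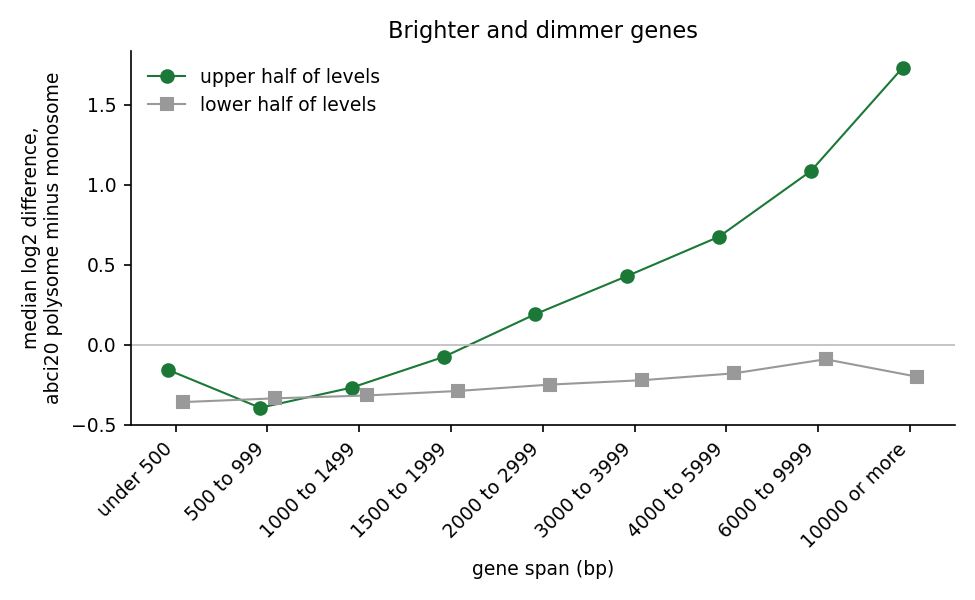
Median log2 difference (abci20 polysomal minus monosomal, y axis) by class of gene span in bp (x axis), for protein-coding genes above (green circles) and at or below (grey squares) the median level of the 6 arrays. The brighter genes run up to 1.73 at 10000 bp or more, where the dimmer ones have -0.20.

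The same relation was read on each array alone, as the median level of the 878 genes of 6000 bp or more minus that of the 3817 genes under 1000 bp. It was 3.77, 3.80 and 3.50 on the abci20 polysomal arrays and 2.04, 2.15 and 1.97 on the monosomal arrays. The abci20 total RNA arrays lay between them, at 2.66, 2.35 and 2.49. The 2 fractions did not overlap, with means of 3.69 ± 0.16 and 2.05 ± 0.09 (SD, n = 3 each) and a difference of 1.64. The exact two-sided permutation test gave p = 0.1, the smallest value that 3 arrays against 3 allow.

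**Figure D4:**
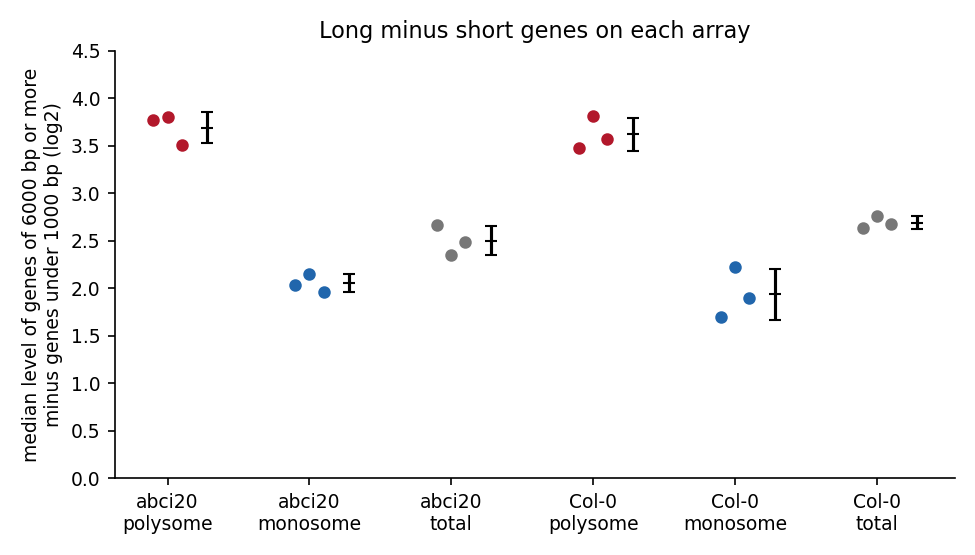
Median log2 level of genes spanning 6000 bp or more minus that of genes under 1000 bp (y axis), 1 point per array, with the mean and SD of 3 arrays as a bar beside them. The abci20 polysomal arrays lie at 3.50 to 3.80, above the abci20 monosomal arrays at 1.97 to 2.15, and the Col-0 arrays are placed alike.

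A few genes went against their span. Of the 3817 genes under 1000 bp only 28 rose, against 7.31% of all probe sets. Of these 28, 7 carry AT2G07 locus names, which lie in the part of chromosome 2 known for a large insertion of mitochondrial DNA. Over all 96 probe sets with AT2G07 locus names, a set chosen after its values were seen, 18 rose and none fell, with a median of 0.18. Over all probe sets 7.31% rose and 3.45% fell, with a median of -0.11. AT2G07830, AT5G14560 and AT3G42628 were the shortest that rose, with spans of 123, 123 and 138 bp and differences of 1.70, 2.03 and 1.82. Conversely, only 19 of the 3226 genes of 4000 bp or more fell, against 3.45% of all probe sets. The longest of them was FLC, the MADS-box repressor of flowering, whose span of 6067 bp includes a long first intron. FLC had 5.28, 5.59 and 5.08 on the polysomal and 6.63, 6.70 and 6.21 on the monosomal arrays, a difference of -1.19 ± 0.26 (SE), adjusted p = 0.0075. HDG3, a homeodomain factor, and ABCB21, an ABC transporter, fell by 1.13 and 0.80 at low levels, at the percentiles 40.1 and 35.1, and each lost its call under 5 alternatives.

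Gene groups of the dry seed were then compared, each by its members called and its median, beside 7.31% higher, 3.45% lower and a median of -0.11 over all probe sets. Because span went with the difference, the median distance of its members from their span class medians is given beside the median of each nuclear group below. Many of the groups were bright, and in the brightest of the 4 classes by level 14.6% of probe sets rose and 7.78% fell. The span class medians cover genes of all levels, so these distances do not account for level. Late embryogenesis abundant proteins, which protect cells during drying, were lower in polysomal RNA. Of 25 genes, 13 fell and none rose, all 25 differences were negative and the median was -0.55, or -0.35 relative to the span classes. AT5G44310 had 8.99, 9.04 and 9.15 on the polysomal and 10.21, 10.31 and 10.28 on the monosomal arrays, a difference of -1.21 ± 0.20 (adjusted p = 0.00108). LEA7, LEA18 and AT4G21020 fell by 0.95, 0.82 and 0.91. Without a single compared array, the list held 7 to 9 lower calls.

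Small heat shock proteins, chaperones that hold unfolding proteins and are stored in dry seeds, were lower too. Of 14, 7 fell and none rose, with a median of -0.75, or -0.40 relative to their span classes. Without a single compared array, the list held 4 to 7 lower calls. ATHSP22.0, of the endoplasmic reticulum, had 7.14, 7.72 and 6.84 on the polysomal and 8.81, 8.86 and 8.85 on the monosomal arrays, a difference of -1.61 ± 0.26 (adjusted p = 0.000836). AT1G53540 fell by 1.44, HSP17.6A by 1.06 and AT2G29500 by 0.93. Few of the large ATP-driven chaperones were called. Of 10 genes of the HSP70, HSP90 and HSP101 families, 2 rose and none fell, 9 differences were positive and the median was 0.46, or 0.41 relative to the span classes. The list held 0 to 1 higher calls without a single compared array, and the difference from the small heat shock proteins was not tested. HSP101, the disaggregase needed for heat tolerance, had 11.04, 10.91 and 11.06 on the polysomal and 10.35, 10.39 and 10.46 on the monosomal arrays, a difference of 0.61 ± 0.17 (adjusted p = 0.0252). Hsp81.4, a cytosolic HSP90, rose by 1.83 ± 0.50 (adjusted p = 0.0258). Both lost their call under some alternatives, with an adjusted p of up to 0.0971 for HSP101 and 0.122 for Hsp81.4. Of 13 chaperones of the endoplasmic reticulum none was called, with a median of 0.13, or -0.05 relative to the span classes.

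All 7 metallothioneins had negative differences and 5 fell, with a median of -0.84, or -0.50 relative to the span classes. Besides MT1C and MT1A these were the seed types AtMT4a and AtMT4b, at -0.61 and -0.84, and MT2A at -0.58. Without a single compared array the list held 3 to 5 lower calls, and MT2A lost its call under 9 settings, with an adjusted p of up to 0.366. AtMT4b had 10.32, 9.96 and 10.49 on the polysomal and 11.07, 11.03 and 11.19 on the monosomal arrays.

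Storage proteins were among the brightest probe sets and 3 of 11 fell, all of them small albumins. SESA2 had 8.84, 8.56 and 8.996 on the polysomal and 9.92, 9.89 and 10.06 on the monosomal arrays, a difference of -1.16 ± 0.26 (adjusted p = 0.00806). SESA3 had 10.52, 10.17 and 10.73, against 11.15, 11.18 and 11.30, a difference of -0.74 ± 0.20 (adjusted p = 0.0245). SESA5 differed by -0.56 (adjusted p = 0.0403) and SESA1 by -0.54 (adjusted p = 0.159). The group's median was -0.38, or -0.19 relative to the span classes, SESA3 and SESA5 lost their calls under 7 and 10 settings, and the list held 1 to 2 lower calls without a single compared array. Oil body proteins, which coat the seed's oil droplets, had 3 lower of 9 (33.3%) and none higher, with a median of -0.46, or -0.17 relative to the span classes. These genes were bright and short, with a median percentile of 99.6 and a median span of 889 bp. Of the brighter genes from 500 to under 1000 bp, 22.6% fell, with a median difference of -0.40, near that of the list. That class of span also holds SESA2, SESA3 and SESA5. AT2G25890, in the oleosin list, had 9.23, 9.74 and 9.15 on the polysomal and 10.75, 10.59 and 10.56 on the monosomal arrays, a difference of -1.26 ± 0.20 (adjusted p = 0.000749). OLEO3 and AT3G18570 fell by 0.60 each; OLEO3 lost its call under 10 and AT3G18570 under 9 of the settings tried, and the list held 1 lower call without any single compared array. OLEO1, the main oleosin, differed by -0.46 (adjusted p = 0.11).

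**Figure D5:**
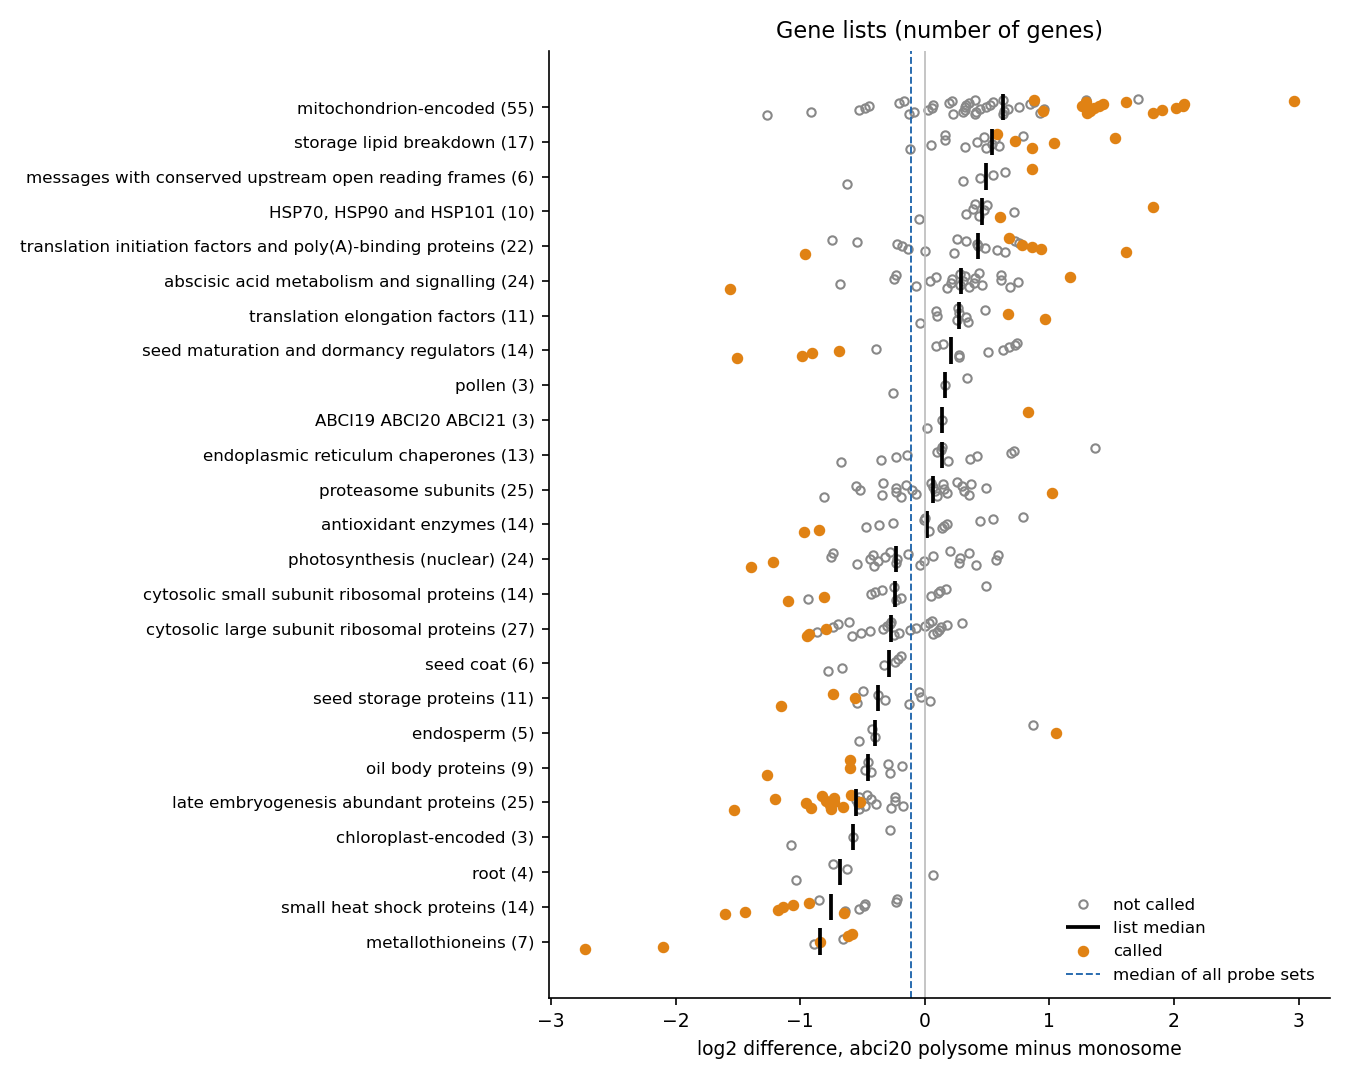
Log2 difference (abci20 polysomal minus monosomal, x axis) of each gene in 25 lists (y axis, with the number of genes). Filled orange circles are called and open grey circles are not, black bars are list medians and the dashed blue line is the median of all probe sets, -0.11; metallothioneins lie at the low end and mitochondrion-encoded genes at the high end.

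Most enzymes that break down stored oil had positive differences. Of 17 genes 5 (29.4%) rose and none fell, 16 differences were positive, and the median was 0.54, or 0.18 relative to their span classes. Without a single compared array 3 to 5 rose, and after quantile normalization 8. These genes were bright and long, with a median percentile of 96.2 and a median span of 3982 bp. Of the brighter genes from 3000 to under 4000 bp, 17.8% rose, with a median difference of 0.43. From 4000 to under 6000 bp 38.2% of the brighter genes rose, with a median of 0.67. The share and median of the list lie between these. SDP1, the lipase that starts the breakdown of seed oil, had 7.62, 7.68 and 7.55 on the polysomal and 6.55, 6.53 and 6.66 on the monosomal arrays, a difference of 1.04 ± 0.19 (adjusted p = 0.00236). LACS6 and LACS7, which activate fatty acids in peroxisomes, rose by 0.86 and 0.73, and ACX1, an acyl-CoA oxidase, by 0.58. LACS7 lost its call under 2 settings.

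Most genes of the translation machinery were not called. Of 22 initiation factors and poly(A)-binding proteins, 5 rose and 1 fell, with a median of 0.42, or 0.25 relative to the span classes. Without a single compared array, 2 to 4 rose. EIF4G, the scaffold of the cap-binding complex, had 8.47, 8.42 and 8.58 on the polysomal and 6.85, 6.86 and 6.91 on the monosomal arrays, a difference of 1.62 ± 0.21 (adjusted p = 0.00012). Its isoforms eIFiso4G1 and eIFiso4G2 rose by 0.93 and 0.68, the helicase EIF4A-2 by 0.78 and PAB8 by 0.86. EIF4E, the small subunit that binds the cap itself, fell. It had 6.90, 7.18 and 6.60 on the polysomal and 7.64, 8.14 and 7.80 on the monosomal arrays, a difference of -0.96 ± 0.24 (adjusted p = 0.0155, and up to 0.0806 among the alternatives). EIF4G spans 6849 bp and EIF4E 1703 bp.

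Of 11 elongation factors 2 rose, LOS1 (elongation factor 2) by 0.96 and AT1G57720 by 0.67, and the median was 0.27, or 0.37 relative to the span classes. The list held 0 to 1 higher calls without a single compared array, and AT1G57720 lost its call under 7 and LOS1 under 3 settings. The proteins of the ribosome itself had negative medians, -0.24 for 14 of the small and -0.27 for 27 of the large subunit, and 0.02 and -0.07 relative to their span classes. In the small subunit PFL and RPS10B fell by 1.10 and 0.81, and in the large subunit AT3G11250, UBQ1 (a ubiquitin fused to a ribosomal protein) and RPL24A fell by 0.95, 0.93 and 0.79. Single arrays decided some of these calls, since the lists held 0 to 2 lower calls in the small and 0 to 1 in the large subunit without a compared array. The median of 25 proteasome subunits was 0.06, or 0.08 relative to the span classes. RPN1A, a large subunit of the regulatory particle, alone was called; it had 9.47, 9.36 and 9.63 on the polysomal and 8.42, 8.24 and 8.73 on the monosomal arrays, a difference of 1.02 ± 0.19 (adjusted p = 0.00197).

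In the abscisic acid pathway, which holds the seed dormant, 1 of 24 genes rose and 1 fell, and the median was 0.29, or 0.24 relative to the span classes. PYR1, a receptor of the hormone, had 6.001, 6.11 and 5.81 on the polysomal and 7.92, 7.41 and 7.28 on the monosomal arrays, a difference of -1.56 ± 0.34 (adjusted p = 0.00701). HAI2, a phosphatase that holds the pathway back, had 7.12, 7.47 and 7.28, against 5.72, 6.62 and 6.04, a difference of 1.16 ± 0.27 (adjusted p = 0.00997). It lost this call under 1 setting. PP2CA, another such phosphatase, and NCED9, an enzyme of hormone synthesis, had differences of 0.61 and 0.69 that missed the threshold (adjusted p = 0.0588 and 0.0592). Among 14 regulators of seed maturation and dormancy 4 fell and none rose, with a median of 0.21, or -0.30 relative to the span classes. LEC2, LEC1 and DPBF2 differed by -1.51, -0.98 and -0.91 at low levels, at the percentiles 31.4, 37.9 and 43.1. HY5, a light-signalling factor, was brighter, and had 6.13, 6.39 and 5.96 on the polysomal and 6.84, 6.96 and 6.76 on the monosomal arrays (difference -0.69 ± 0.20, adjusted p = 0.0348). After centring each array on its median, the list held 1 call. DPBF2 lost its call under 10 settings, HY5 under 7, LEC1 under 6 and LEC2 under 1.

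The other groups held few calls. In 14 antioxidant enzymes 2 superoxide dismutases fell, the mitochondrial MSD1 by 0.97 and the plastid CSD2 by 0.85, and the median was 0.02, or -0.04 relative to the span classes. In 24 nuclear photosynthesis genes PSBW and CAB2 fell by 1.39 and 1.21, CAB2 at a level near the bottom of the arrays, and the median was -0.23, or 0.03 relative to the span classes. CSD2 lost its call under 3 settings and CAB2 under 4. Of 6 messages with conserved upstream open reading frames, short reading frames that can stall ribosomes, EMB1444 rose by 0.86 (adjusted p = 0.0472) and none fell; this call was lost under 9 settings, among them each omission of a compared array, with an adjusted p of up to 0.382. The median of these messages was 0.49, or 0.39 relative to the span classes. Of 5 endosperm markers MAN6, a mannanase, rose by 1.05 (adjusted p = 0.0259), and lost its call under 6 settings, with an adjusted p of up to 0.176. The median of the endosperm markers was -0.40, or -0.22 relative to the span classes.

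Mitochondrion-encoded probe sets were higher in polysomal than in monosomal RNA, but not higher than in total RNA. Of 92 measured, 37 had the same values as another probe set and were left aside. Of the other 55, 17 rose and none fell, 46 differences were positive and the median was 0.63. Their median level was 7.02, 6.95 and 7.03 on the polysomal and 6.24, 6.05 and 6.38 on the monosomal arrays. On the abci20 total RNA arrays it was 7.31, 8.78 and 8.82, above both fractions. The reference has no names for these loci. ATMG00580 had 8.95, 8.66 and 9.19 on the polysomal and 7.01, 6.54 and 7.22 on the monosomal arrays, a difference of 2.01 ± 0.21 (adjusted p = 3.39e-05). ATMG00490, ATMG00570 and ATMG00500 rose by 2.08, 1.91 and 1.62. ATMG01240, picked out after its values were seen, had the largest difference of the list, 2.97 (adjusted p = 0.0021), with 5.15, 4.13 and 4.12 on the polysomal and 2.49, 0.67 and 1.34 on the monosomal arrays. Messages made inside mitochondria are translated there on the organelle's own ribosomes; whether organelles or large particles sedimented with the polysomes was not tested. The 3 chloroplast-encoded probe sets kept had a median of -0.57 and none was called.

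The contrast of polysomal with monosomal RNA was also made in Col-0 seeds, on other arrays. There 3467 (12.5%) probe sets were called, 2283 higher and 1184 lower. That count was 2179 without Col-0 monosomal replicate 1, and 1963, 1965 and 1730 without Col-0 polysomal replicate 1, 2 and 3. Of the 2034 that rose in abci20, 1441 also rose in Col-0, which is 70.8% of the abci20 list and 63.1% of the Col-0 list. Of the 960 that fell in abci20, 467 also fell in Col-0, 48.6% and 39.4% of the lists. None was called in opposite directions. The 2 contrasts rest on separate arrays but came from the same fit, with a shared estimate of the spread for each probe set. The 2 lists of calls are therefore not independent of each other. Of the abci20 calls, 2025 of those higher and 942 of those lower had the same sign in Col-0, called there or not. Across all probe sets the differences of the 2 genotypes had a Pearson's r of 0.769 and a Spearman's rho of 0.716. By span, the medians were 1.504 in abci20 and 1.506 in Col-0 at 10000 bp or more, and -0.34 and -0.40 under 500 bp. Long minus short genes differed between the Col-0 fractions by 1.68, with 3.47, 3.81 and 3.57 on the polysomal and 1.69, 2.23 and 1.89 on the monosomal arrays (exact two-sided permutation p = 0.1).

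The test of the difference between the genotypes called no probe set (0%) in limma, with 744 (2.67%) at an unadjusted p below 0.05. With array weights it called 2, AT5G39180 and ACHT3, a thioredoxin-like protein. Both are dim. ACHT3 had 1.38, 1.14 and 1.24 on the abci20 polysomal and 1.49, 1.47 and 1.19 on the abci20 monosomal arrays, against 1.0002, 1.04 and 1.19 on the Col-0 polysomal and 2.44, 3.004 and 3.31 on the Col-0 monosomal arrays. Only the Col-0 monosomal arrays stood apart, and the genotype difference was 1.71 ± 0.33 (SE), adjusted p = 0.908. AT5G39180 differed by 1.92 ± 0.34 (adjusted p = 0.66). Of the 10 genes with the smallest p for the genotype difference, AT3G03040 and AT3G15240 stood above the median level. AT3G03040 differed between fractions by 0.33 in abci20 and 1.78 in Col-0 (adjusted p of the genotype difference = 1), and AT3G15240 by -0.19 and 0.91. The largest abci20 rises were of like size in Col-0 for most genes: 2.85 for BIG, 2.54 for AT1G67120 and 2.54 for UPL2. ECA1 differed by 1.56 and AT5G28320 by 0.85 (adjusted p = 0.325) in Col-0, against 2.71 and 2.60 in abci20, and neither genotype difference passed the test.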

How the data were processed

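The authors deposited log2 expression values, made with RMA per the submitters' processing notes, for 18 arrays in 6 groups of 3. RMA corrects background, scales arrays to each other and summarises probes into a probe set, so values are relative within the study. The array's build and annotation version are not given in the sources used here. RNA was labelled with a kit for arrays that read the end of messages, per the labels' protocols. The labels' molecule field reads total RNA for all samples; the fraction was taken from the titles.

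limma 3.58.1 (R 4.3.3) fitted the 6 group means to all 27827 probe sets with no filter on low values (12 residual degrees of freedom), with contrasts for polysome minus monosome in each genotype and for their difference, and Benjamini-Hochberg adjustment over all probe sets at 0.05. The fit was run on simulated data with independent noise and a small set of changed probe sets. The simulated data held no difference in spread between fractions and no pairing of arrays, so they cannot show how calls fare under these. No depth exists for arrays; their number limits the precision. Replicates are separate seed bulks per the labels.

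Locus names were matched to the RefSeq gene table of TAIR10.1 (27241 matched, 586 not). Length tests were planned on coding length; no protein or transcript sequence was used here, so gene span, introns included, took its place. 182 probe sets with the same values as another were neither named nor counted in lists. Genes named were the 14 largest called differences each way, the 10 smallest p of the genotype difference, the 4 smallest p per list, the ABCI genes, and the 3 shortest and 3 longest called each way; members of small counts named beyond these were chosen after their values were seen. Members and gene lists were chosen with earlier results of these data known. Alternatives were a replicate block, fewer arrays, quantile normalization, median centring, weights per array, each compared array left out in turn, the brighter probe sets alone, and a robust fit with a variance trend. Leaving out abci20 total replicate 1 was added after the data were seen. The abci20 total arrays resembled each other least. The lowest correlation of replicate 1, 2 and 3 with another array of that group was 0.893, 0.893 and 0.915. In every other group the lowest was 0.957 or more. These arrays share in the estimate of the spread. 1 gene of the storage lipid breakdown list is counted but not reported here by name.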

Additional observations from a re-analysis of the deposited data

How the results depend on the processing

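The abci20 count of 2994 was 3101 with the replicate block and 2950 with a block by seed bulk, and no call of the 28 leading genes was changed by either block. A block ended the calls of OLEO3, DPBF2, SESA5, MT2A, EMB1444, LEC1, HY5, AT2G01667 and AT3G25221. The labels do not say that a number marks a shared block, and the main fit used no block. Deviations of same-numbered polysomal and monosomal arrays correlated at 0.004, 0.114 and 0.112 in abci20. In Col-0 they correlated at 0.105, 0.245 and 0.072. Of the 3 abci20 polysomal arrays 2 correlated best with the monosomal array of their own number, and in Col-0 all 3 did. Whether a number marks a shared seed bulk was not tested further. The abci20 count ranged from 2072 (quantile normalization) to 7029 (array weights) over the planned settings that kept all compared arrays. It ranged from 1475 to 2224 when single compared arrays were left out. With only the 12 polysomal and monosomal arrays in the fit it was 4378, and without abci20 total replicate 1 it was 4008. The Col-0 count of 3467 was 5384 with only the 12 polysomal and monosomal arrays in the fit, 2070 after quantile normalization, 5496 with array weights, 4795 without abci20 total replicate 1, and 1730 to 3351 without single Col-0 arrays. The genotype difference had 0 calls under every setting except array weights, with 2, and 0 without any single array. Long minus short genes differed by 1.64 and by 1.59 to 1.73 without single arrays. The median from 2000 to under 3000 bp changed sign, to 0.18 with brighter probe sets, 0.0071 after centring and 0.0132 after quantile normalization. Uncalled genes near 0 changed sign: ABCI19 to -0.18 and TT10 to 0.053 after quantile normalization; ABCI20 ranged from -0.183 to 0.234 without single arrays; sks14 to -0.114 with array weights and from -0.0907 to 0.413 without single arrays; PYK10 to -0.0136 with array weights and from -0.183 to 0.26 without single arrays. The cause was not tested. No called gene among those named changed direction; over the named genes and settings 181 calls were lost and 80 gained.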

Other observations

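Transcripts that encode no protein were also on the arrays. Of 222 long non-coding RNAs 19 rose and 6 fell between abci20 polysomal and monosomal RNA, with a median of 0.05 on a median level at the percentile 52.1. Of 12 transcribed pseudogenes 4 rose and 1 fell, with a median of 0.51. Of 174 microRNA genes, most of them near the bottom of the arrays with a median percentile of 15.3, none rose and 2 fell. Of 68 small nucleolar RNA genes 3 rose and none fell, and of 52 transfer RNA genes 2 fell and none rose. Over all probe sets 7.31% rose and 3.45% fell.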
